A study of Mus musculus with 6 samples.

Results

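The 10 genes of the Notch pathway described here were measured in group 2 innate lymphoid cells (ILC2s) of the mouse lung: the ligands Jag1, Jag2 and Dll1, the receptors Notch1 and Notch2, the nuclear factor Rbpj, and Hes1, Hey1, Dtx1 and Nrarp, which are known as targets or modulators of the pathway. They are 10 of the 39527 genes of the deposited comparison, matched by symbol, and were chosen by a combination of their roles and the fold changes of this same comparison, so that their values are a description and are not tested again. The samples fall into 2 groups of 3: sorted lung ILC2s of R5/+ mice (WT) and of mice that carry R5/+ together with LKB1f/f (KO), all taken after 4 days of IL-33, an epithelial alarmin that activates ILC2s. Both groups carry R5/+, each sample pooled 3 to 4 mice, and the labels give neither the exons removed nor the cells in which R5/+ acts.

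Notch receptors are single-pass membrane proteins that are activated by Jagged or Delta-like ligands on a neighbouring cell. Endocytosis of the bound ligand exposes a site in the receptor to ADAM proteases, gamma-secretase then frees the intracellular domain, and this domain joins RBPJ and Mastermind proteins on DNA to switch on targets such as the bHLH repressors of the Hes and Hey families. In lymphocytes the pathway is known for directing T cell commitment and for promoting ILC2 differentiation.

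The values are the authors' comparison of the genotypes, with 1 log2 fold change and 1 standard error (SE) per gene, and the mean normalized count over the libraries behind it. Values of single samples were not used here, since their column names match no label, and the depth of each library is therefore unknown here. No source used here says which genotype the fold changes were divided by, so signs are given as deposited. The deleted gene, Stk11, which encodes LKB1, had -1.34 ± 0.30 (SE) in the authors' deposited table, where its adjusted p was 0.000102557. The ILC2 markers Gata3, Il1rl1 and Il7r had means of 44552, 16936 and 11642 normalized counts in the authors' deposited table. A gene is called when its deposited adjusted p is below 0.05. In bulk samples, fewer cells of a type and less RNA per cell cannot be told apart.

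Stretches before the start sites of Jag1, Notch2 and Rbpj are shown because these windows hold letters that factors of the pathway bind in general: CACGCG, the class C site of Hes and Hey repressors, or TGGGAA, the core of the RBPJ site. They were read from the RefSeq promoter table on GRCm38.p6, run 5′ to 3′ on the strand of the gene, leave out bases in annotated exons, and carry matches to either strand in capitals. The Jag1 stretch is chr2:137116645-137116770 on the minus strand, the Notch2 stretch chr3:98013288-98013526 on the plus strand and the Rbpj stretch chr5:53590096-53590213 on the plus strand.
Jag1: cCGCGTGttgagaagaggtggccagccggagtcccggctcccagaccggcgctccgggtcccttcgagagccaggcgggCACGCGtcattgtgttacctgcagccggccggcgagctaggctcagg
Notch2: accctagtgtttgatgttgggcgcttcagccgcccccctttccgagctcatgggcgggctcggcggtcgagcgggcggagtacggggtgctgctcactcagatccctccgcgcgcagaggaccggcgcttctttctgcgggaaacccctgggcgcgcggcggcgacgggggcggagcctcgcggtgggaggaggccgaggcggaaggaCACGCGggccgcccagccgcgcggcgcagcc
Rbpj: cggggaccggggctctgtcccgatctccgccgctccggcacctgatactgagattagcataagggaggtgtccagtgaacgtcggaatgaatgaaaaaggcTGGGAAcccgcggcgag

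Of the 10 genes, 8 had an entry in that table, in 10 windows of 300 bases (250 before and 50 after the start). CACGCG was found on either strand in 5 of these windows, those of Jag1 with 2 matches and of Jag2, Notch2, Dtx1 and Dll1 with 1 each, against 9.27% of all 32851 windows. The core TGGGAA was found in both overlapping windows of Rbpj, at 2 places (chr5:53590197-53590202 and chr5:53590281-53590286, the latter outside the stretch shown), against 25.6% of all windows. The longer GTGGGAA, which contains the core, was in 0 of the 10 windows and in 6.38% of all. The E-box CACGTG was in 1 of the 10, that of Nrarp, and in 7.15% of all, and no match overlapped one of another motif. The 10 windows held 15 to 63 CpG dinucleotides against a median of 7 over all windows, with a GC content from 55.7% to 86%, and the window of Jag2 was the richest. Base composition therefore differed together with the CpG-containing motif, and its part in the motif count was not tested. These matches are letters in a window and were not measured as binding.

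Levels were compared per kilobase of annotated exon, in mean normalized counts per kb in the authors' deposited table. Notch2 and Rbpj stood highest at 732 and 684, followed by Hes1 at 195, Hey1 at 191 and Notch1 at 132. These 5 lay above 67.4, the median of tested genes. Jag1 at 54.3, Dll1 at 51.2 and Dtx1 at 24.3 lay below it, and Jag2 at 3.79 and Nrarp at 0.562 were near the bottom of the range. The means are deposited with no spread, so which neighbours in this order differ cannot be said. Each mean also pools both genotypes. For genes with a large fold change, such as Jag1 at 9.42-fold, the level in either genotype may lie on another side of the median.

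**Figure D1:**
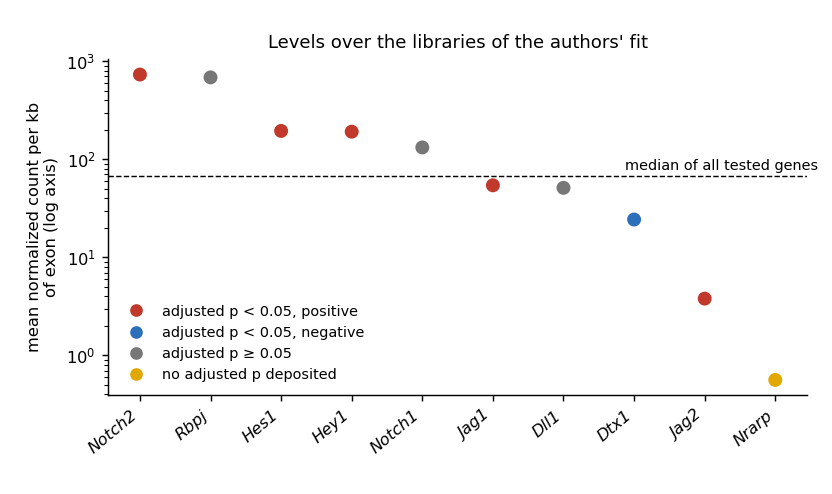
Mean normalized count per kb of annotated exon (log axis) for the 10 Notch genes, ordered by level. Each point is the mean over the libraries of the authors' fit, both genotypes together, with no spread deposited. Notch2 (732) and Rbpj (684) are the highest and Nrarp (0.562) the lowest, and the dashed line is the median of tested genes (67.4).

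Of the 10 genes, 9 had an adjusted p, and 5 of these were called with a positive and 1 with a negative sign. Over all 14961 genes with an adjusted p, 24.5% were called, 11.0% with a positive and 13.5% with a negative sign, and nothing is read from the difference since these fold changes took part in the choice of genes. The median log2 fold change of the 9 was 0.59, beside -0.0056 over all tested genes. Jag1, Hey1, Jag2, Hes1 and Notch2 were positive, in descending order, and Dtx1 was negative. Dll1, Notch1 and Rbpj were not called, and Nrarp had too few counts for an adjusted p.

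**Figure D2:**
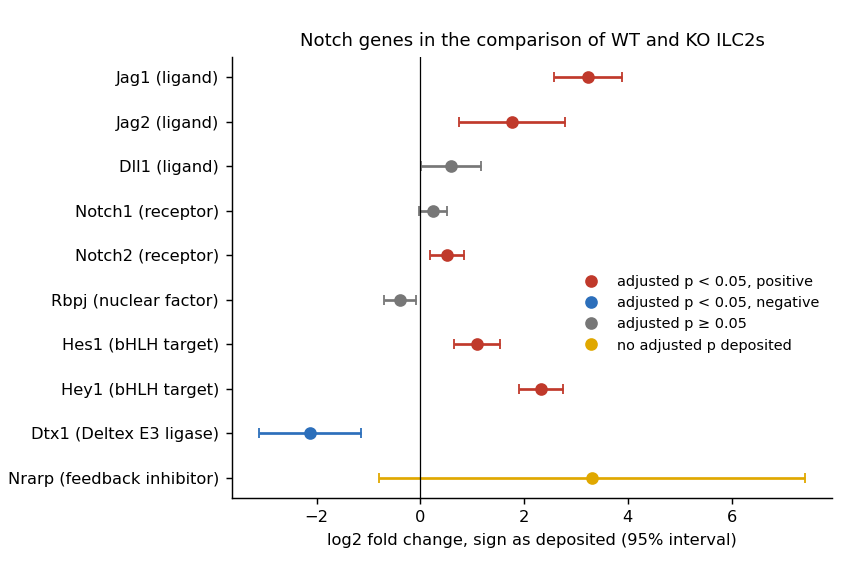
Deposited log2 fold change of each of the 10 Notch genes, sign as deposited, with its 95% normal interval; colour marks the deposited call. Jag1 (3.24) and Hey1 (2.33) lie farthest to the right of the called genes and Dtx1 (-2.13) lies to the left, while Nrarp, the point farthest to the right (3.31), has an interval from -0.79 to 7.41.

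Among the ligands, Jag1 had the largest value of the 9 genes with an adjusted p. Jag1 (ENSMUSG00000027276, mm10 chr2:137081456-137116644, minus strand) encodes Jagged1, a membrane ligand of all Notch receptors. Its log2 fold change was 3.24 ± 0.33 (SE) in the authors' deposited table, a 9.42-fold difference with a 95% interval from 6.0 to 14.8, with an adjusted p of 1.22e-19 and a mean of 316.4 normalized counts. It was number 21 of the 14961 genes in order of positive fold change. The value kept its call when shrunken towards 0, at 2.05, where its size was lower by more than 1.5 times. The nearest values above it, among those called and with at least 100 mean normalized counts, belonged to the actin-binding protein palladin, Palld, at 3.48 and the fatty acid hydroxylase Fa2h at 3.65 in the authors' deposited table. The nearest below were the axon guidance molecule Sema3a at 3.19 and the cytokine Il3 at 3.13 in the authors' deposited table. Likeness here is closeness of fold change in 1 comparison, and patterns over samples were not compared.

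Jag2 (ENSMUSG00000002799, mm10 chr12:112907819-112929776, minus strand) encodes the second Jagged ligand and was scarce, with a mean of 26.4 normalized counts. Its log2 fold change was 1.76 ± 0.52 (SE) in the authors' deposited table, 3.39-fold with an interval from 1.67 to 6.89 and an adjusted p of 0.00547. The intervals of Jag1 (2.58 to 3.89) and Jag2 (0.74 to 2.78) on the log2 scale overlap, and the difference between them was not tested. The Jag2 call did not hold with shrinkage towards 0, which lowers every score by construction and most where the SE is large. There the value was 0.73 with an adjusted p of 0.125, in a range from 0.00446 to 0.125 over the alternatives tried. Dll1 (ENSMUSG00000014773, mm10 chr17:15367354-15376872, minus strand), a Delta-like ligand known from the stroma of lymphoid organs, had 0.59 ± 0.29 (SE), adjusted p 0.131, at a mean of 215.9 in the authors' deposited table, and was not called. Of the other ligands, Dll4 was not called at -1.19 ± 1.495 (SE) in the authors' deposited table, a wide error at a mean of 24.6. Dll3, Dlk1 and Dlk2 had means of 1.83 to 4.94 normalized counts in the authors' deposited table, and no adjusted p.

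Of the receptors, Notch2 was called and Notch1 was not. Notch2 (ENSMUSG00000027878, mm10 chr3:98013527-98150361, plus strand) had 0.51 ± 0.16 (SE) in the authors' deposited table, 1.43-fold with an interval from 1.14 to 1.78, an adjusted p of 0.0105 and a mean of 7888 normalized counts. Notch1 (ENSMUSG00000026923, mm10 chr2:26457903-26516663, minus strand), the receptor of T cell commitment, had 0.24 ± 0.13 (SE) and an adjusted p of 0.188 at a mean of 1881 in the authors' deposited table. The intervals of the 2 receptors, 0.19 to 0.83 and -0.02 to 0.51 on the log2 scale, overlap, and the difference between them was not tested. Both genes are long, with 10.8 and 14.2 kb of annotated exon, and fold changes moved with length over 13036 protein-coding genes, from a median of -0.24 in the shortest to 0.15 in the longest 25%. With this trend removed, Notch2 stood at 0.33 with an adjusted p of 0.136 (0.00552 to 0.176 over the alternatives) and lost its call, and Notch1 turned to -0.02 with an adjusted p of 0.94 (0.117 to 0.94 over the alternatives). Notch3 had 0.84 ± 0.47 (SE) and Notch4 -0.16 ± 0.77 (SE) in the authors' deposited table, at means of 49.4 and 18.8, and neither was called.

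Rbpj (ENSMUSG00000039191, mm10 chr5:53466152-53657362, plus strand) encodes the DNA-binding factor through which all Notch receptors act. It lay below 0, at -0.39 ± 0.16 (SE) in the authors' deposited table, with an adjusted p of 0.0561 at a mean of 8725 normalized counts, and was not called. Its 95% interval ran from -0.70 to -0.08 on the log2 scale. The call depended on the processing. Rbpj passed at an adjusted p of 0.0421 when only genes with a mean of at least 100 were adjusted, and with the length trend removed it stood at -0.62 with an adjusted p of 0.000996. Over all alternatives its adjusted p ran from 0.000996 to 0.142. Its exons span 12.8 kb, in the longest 25% of genes, in which the median fold change was positive.

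The bHLH repressors Hes1 and Hey1 were both called with a positive sign. Hey1 (ENSMUSG00000040289, mm10 chr3:8663359-8667256, minus strand), a repressor best known from cardiovascular development, had 2.33 ± 0.22 (SE) in the authors' deposited table, 5.01-fold with an interval from 3.74 to 6.73, an adjusted p of 5.63e-24 and a mean of 624.5 normalized counts. It was number 79 of 14961 in order of positive fold change. Hes1 (ENSMUSG00000022528, mm10 chr16:30064384-30067796, plus strand), the classical Notch target in lymphoid progenitors, had 1.10 ± 0.23 (SE) in the authors' deposited table, 2.14-fold with an interval from 1.58 to 2.92 and an adjusted p of 2.54e-05 at a mean of 396.5. The interval of Hey1 on the log2 scale, 1.90 to 2.75, lay above that of Hes1, 0.66 to 1.54. Both genes are short, and with the length trend removed their values were larger, at 2.41 and 1.29. Of their relatives, Hes6 had 0.11 ± 0.16 (SE) and Heyl -0.75 ± 1.18 (SE) in the authors' deposited table, and neither was called. Hes2, Hes3, Hes7 and Hey2 had means from 1.58 to 4.57 normalized counts in the authors' deposited table and no adjusted p.

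Dtx1 and Nrarp are both transcribed in response to Notch in lymphocytes and act on the receptor complex. Dtx1 (ENSMUSG00000029603, mm10 chr5:120680202-120711927, minus strand), a Deltex E3 ubiquitin ligase that binds the Notch intracellular domain and is also tied to T cell anergy, was the negative exception. Its log2 fold change was -2.13 ± 0.50 (SE) in the authors' deposited table, which is 4.37-fold with an interval from 2.22 to 8.63, with an adjusted p of 0.000281106 at a mean of 128.2 normalized counts. It was number 137 of 14961 in order of negative fold change. Its sign was opposite to those of Hes1 and Hey1, and with shrinkage it was -0.93 with an adjusted p of 0.0317 (0.000105 to 0.0317 over the alternatives). Nrarp (ENSMUSG00000078202, mm10 chr2:25180758-25183339, plus strand), an ankyrin repeat protein that limits Notch signalling, had a mean of 1.45 normalized counts and stood at 3.31 ± 2.09 (SE) on the log2 scale in the authors' deposited table. Its 95% interval from -0.79 to 7.41 includes 0, and no difference was detectable at this level.

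**Figure D3:**
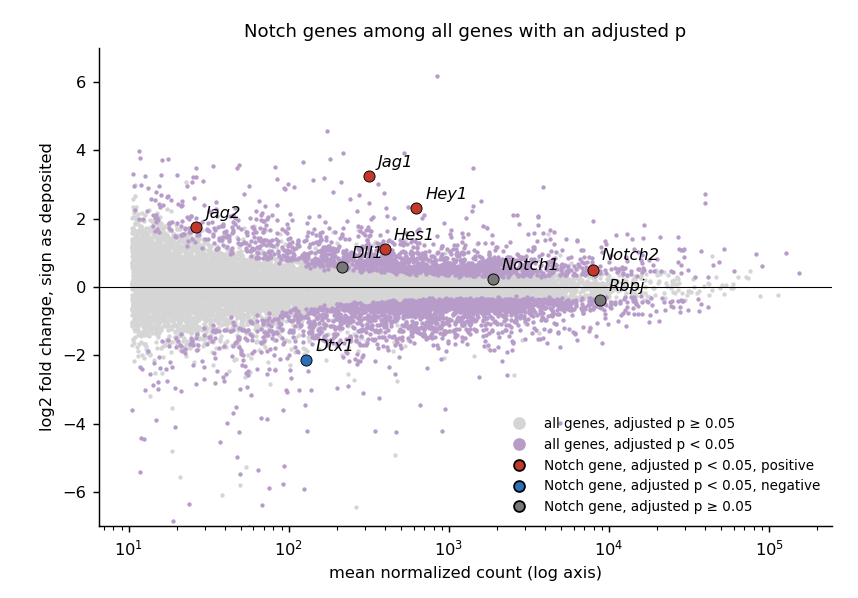
Deposited log2 fold change against mean normalized count (log axis) for the 14961 genes with an adjusted p, called genes in purple and others in grey, with the 9 Notch genes that have one as large outlined points; 17 genes beyond 7 in size are not drawn. Jag1, Hey1 and Dtx1 lie away from the bulk of genes of like abundance, while Notch1, Notch2 and Rbpj lie close to 0 at high counts.

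Markers of other cell types lay mostly on the negative side. Of 63 tested markers of endothelial, stromal, epithelial and other immune cells, 52 lay below 0, beside 7537 of all 14961 tested genes. Their median was -0.75 on the log2 scale in the authors' deposited table, beside -0.0056 over all tested genes. Many of the 63 had SEs well above 0.233, the median of tested genes. Markers of 1 cell type may also move together, so the 63 signs are not independent. Calls numbered 11 of 63 on the negative side and 0 on the positive side, beside 13.5% and 11.0% of all tested genes. Endothelial cells are rich in Jag1, Notch1 and Hey1, and of 12 endothelial markers 11 lay below 0, from -1.55 to 0.00068 over the list, and 0 were called in the authors' deposited table. Pecam1, with the largest mean count of them, had -0.32 ± 0.17 (SE) in the authors' deposited table. The 12 markers, which include the pathway genes Dll4 and Notch4, summed to 4208 mean normalized counts, against 210006 for 14 ILC2 markers. Apart from Pecam1, the SEs of the list ran from 0.68 to 1.495, and its part in the values of Jag1, Notch1 and Hey1 was not tested. Dtx1 and Notch2 are abundant in some B cells, and of 7 tested B and plasma cell markers all lay below 0 and 3 were called negative, Cd79b at -0.88 ± 0.23 (SE) and Ighm at -1.56 ± 0.53 (SE) in the authors' deposited table among them. The list of 8 summed to 8345 mean normalized counts, its levels in single groups were not used here, none of its markers had a mean of 0, and its part in the values of Dtx1 and Notch2 was not tested. Dendritic cell markers were called negative in 4 of 8, T cell markers in 2 of 7, macrophage and monocyte markers in 1 of 10, fibroblast and smooth muscle markers in 1 of 11 and epithelial markers in 0 of 8, none of them positive. The smallest p of these lists belonged to the MHC class II gene H2-Ab1 at -1.74 ± 0.22 (SE), Trat1 of T cells at -2.65 ± 0.35 (SE), the complement gene C1qa at -2.63 ± 0.78 (SE), Pdgfrb at -1.63 ± 0.34 (SE) and the keratin gene Krt8 at -2.19 ± 1.02 (SE), which was not called, in the authors' deposited table. Those with the largest counts were Cd74 at -0.99, Cd3g at -0.66, Ccr2 at 0.12, Col3a1 at -1.61 and Sftpc at -1.18 in the authors' deposited table, of which Ccr2, Col3a1 and Sftpc were not called. Mean counts within a list were uneven, such as 1605 for Cd3g beside 98.5 for Cd3d, and 9763 for Ccr2 beside 93.9 for Csf1r. Which cells gave the counts of any of these markers, ILC2s among them, was not tested. Of the 14 ILC2 markers, 4 were called positive and 3 negative, beside 11.0% and 13.5% of all tested genes. The growth factor receptor Kit, called positive, had 1.53 ± 0.16 (SE) in the authors' deposited table. The 3 negative calls were Thy1 at -1.98 ± 0.75 (SE), Il13 at -1.06 ± 0.18 (SE) and Klrg1 at -0.44 ± 0.12 (SE) in the authors' deposited table.

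The rest of the pathway was taken from lists of Notch genes by role, of which 85 genes beside the 10 had a row and 75 an adjusted p. Of these 75, 20 were called positive and 6 negative, beside 11.0% and 13.5% of all tested genes, and their median was 0.16 on the log2 scale. With the length trend removed, 12 were called positive and 6 negative. The shares of all genes called under this and the other alternatives are not given here, so the 11.0% and 13.5% do not apply to them.

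Of 4 tested genes of ligand endocytosis, 3 were called positive and 0 negative, beside 11.0% and 13.5% of all tested genes. Mib1 and Mib2, the Mind bomb ubiquitin ligases that drive uptake of Notch ligands, had 0.81 ± 0.23 (SE) and 0.92 ± 0.23 (SE) in the authors' deposited table. The other was the Neuralized-like ligase Neurl3 at 0.55 ± 0.19 (SE) in the authors' deposited table. Neurl1b, at -0.41 ± 0.75 (SE) in the authors' deposited table, was not called. Of 6 glycosylation genes, 1 was called positive and 0 negative, beside the same shares of all tested genes. It was the Fringe enzyme Mfng at 0.84 ± 0.18 (SE) in the authors' deposited table, which modifies the receptor and so changes its preference between ligands. Its relative Lfng had 0.56 ± 0.26 (SE) in the authors' deposited table and was not called, and Poglut1, which was not called, stood at -0.02 and at 0.016 after recentring.

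Of 10 genes of receptor cleavage, 1 was called positive and 0 negative, beside 11.0% and 13.5% of all tested genes. The protease Adam17 was the 1 called, at 0.39 ± 0.12 (SE) in the authors' deposited table, and the gamma-secretase subunits Psen2, Ncstn, Aph1a, Aph1b, Aph1c and Psenen were not, with values from -0.47 to 0.18. Furin, the abundant convertase that processes the receptor precursor, had 0.17 ± 0.21 (SE) in the authors' deposited table. In the nuclear complex, 1 of 9 genes beside Rbpj was called, the acetyltransferase Ep300 at 0.31 ± 0.12 (SE) in the authors' deposited table. The Mastermind coactivators Maml1, Maml2 and Maml3 were not called, at 0.0019, 0.15 and 0.65 in the authors' deposited table. With the length trend removed, neither list held a call beside Rbpj, and with the GC trend removed as well, receptor cleavage held 1 positive call and the nuclear complex 0.

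Corepressors were called in both directions, 4 positive and 4 negative of 16, beside 11.0% and 13.5% of all tested genes. The deacetylases Hdac1 and Hdac2 had -0.48 ± 0.13 (SE) and -0.38 ± 0.14 (SE), and Ctbp1 had -0.88 ± 0.25 (SE) in the authors' deposited table. The positive calls included the histone demethylase Kdm5a at 0.34 ± 0.12 (SE), L3mbtl3 at 0.93 ± 0.34 (SE) and the Groucho family member Tle2 at 0.78 ± 0.27 (SE) in the authors' deposited table. Tle4, of the same family, had the opposite sign, at -0.53 ± 0.21 (SE) in the authors' deposited table. Positive calls among the 16 numbered 1 with the length trend removed, 0 with the GC trend removed as well, 1 when adjusted over every gene with a p-value, 2 with shrinkage and 0 at an adjusted p below 0.01. Negative calls numbered 4, 3, 2, 2 and 2 in the same order, and 2 after recentring.

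Genes of inhibition and turnover other than Dtx1 and Nrarp were called positive in 7 and negative in 0 of 12. Of all tested genes, 11.0% were called positive and 13.5% negative. Numb, the endocytic adaptor that antagonizes Notch, had 0.86 ± 0.15 (SE) and an adjusted p, 1.14e-06 in the authors' deposited table, that was the smallest of the 12. The ubiquitin ligases Itch and Nedd4 had 0.49 ± 0.14 (SE) and 0.41 ± 0.12 (SE), and the adaptor kinase Aak1 had 0.61 ± 0.19 (SE) in the authors' deposited table. The relatives of Dtx1 did not share its sign: Dtx2 had 0.47 ± 0.15 (SE), Dtx3 0.61 ± 0.21 (SE) and Dtx3l 0.56 ± 0.13 (SE), all called, while Dtx4 at 0.15 ± 0.29 (SE) was not, in the authors' deposited table. All 4 stayed above 0 under recentring, shrinkage and removal of the trends, but calls fell from 3 to 2 with shrinkage, with the length trend or both trends removed and when adjusted over every gene with a p-value, and to 1 at an adjusted p below 0.01. Per kb of exon, Dtx2 stood at 73.8, Dtx3 at 845 and Dtx3l at 264 mean normalized counts in the authors' deposited table, each above the 24.3 of Dtx1. With the length trend removed, 3 of the 12 genes of inhibition and turnover were called positive and 0 negative.

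Of 13 genes tied to Notch in lymphocytes, 3 were called positive and 2 negative, beside 11.0% and 13.5% of all tested genes. Myc had 1.10 ± 0.21 (SE), Gata3 0.63 ± 0.16 (SE) and Il4 0.78 ± 0.24 (SE), and on the negative side Tcf7, the TCF1 factor of early T cells and ILC precursors, had -1.004 ± 0.23 (SE) and the granzyme Gzmb -2.15 ± 0.32 (SE) in the authors' deposited table. Il7r, at 0.51 ± 0.21 (SE) in the authors' deposited table, where its adjusted p was 0.0540, was not called. All of these genes also respond to other signals.

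**Figure D4:**
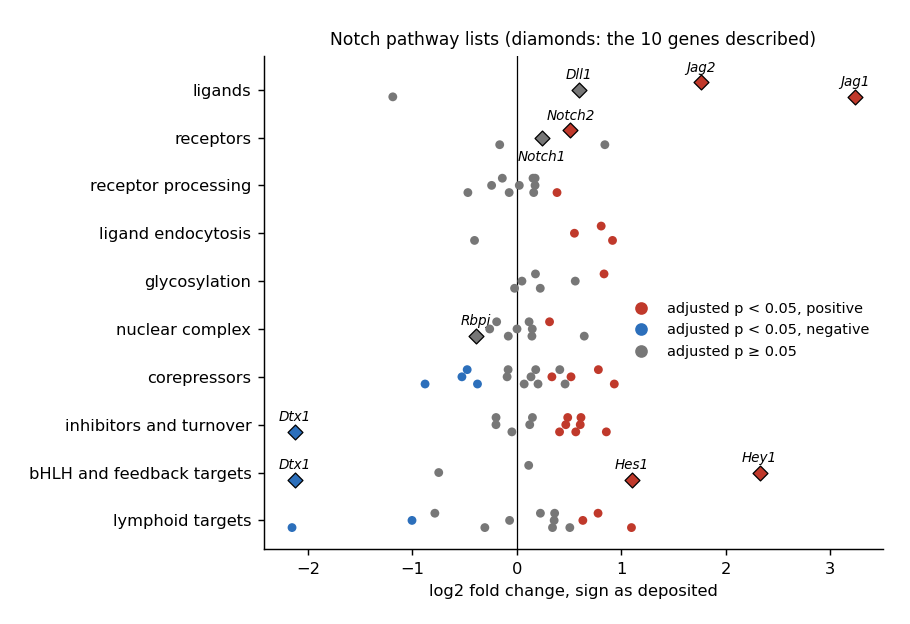
Deposited log2 fold changes of genes with an adjusted p in 10 lists of the Notch pathway, sign as deposited; circles are other genes of each list, diamonds the genes described above, and colour marks the call. Among circles, inhibitors and turnover show 7 positive and 0 negative calls of 12 and corepressors 4 of each of 16. Of all tested genes, 11.0% were called positive and 13.5% negative. No circle lies as far to the right as Jag1 or Hey1.

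The sizes were recomputed after recentring on the most abundant genes (a shift of 0.037), after removal of the length trend, of the length and GC trends together, and after shrinkage. Jag1, Hey1, Hes1 and Dtx1 kept sign and call under each of them. Over all alternatives Jag1 ranged from 2.05 to 3.27, Hey1 from 1.87 to 2.41, Hes1 from 0.87 to 1.29 and Dtx1 from -2.26 to -0.93.

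**Figure D5:**
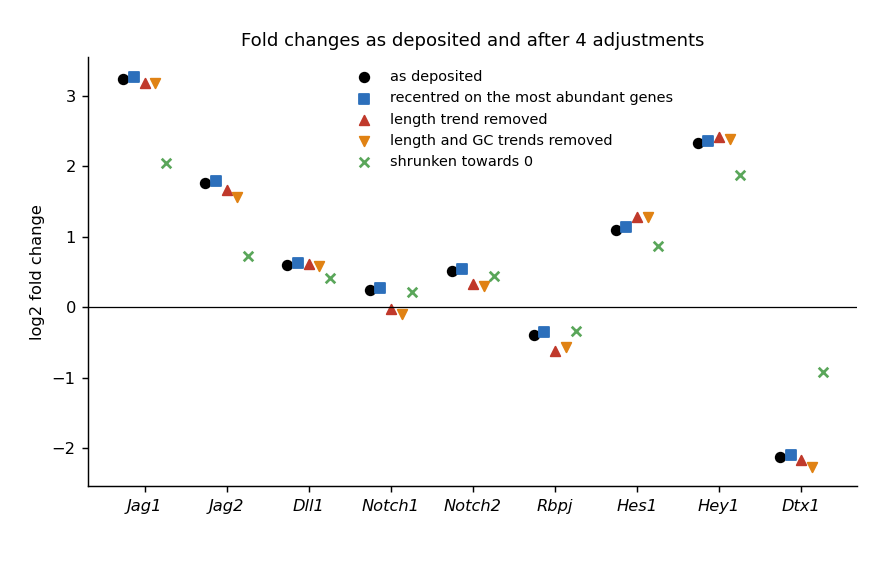
Log2 fold change of the 9 Notch genes with an adjusted p, as deposited (black circles) and after recentring, removal of the length trend, removal of length and GC trends, and shrinkage towards 0. Notch1 is the gene whose value crosses 0 (0.24 as deposited, -0.02 and -0.09 after the trends were removed), and shrinkage moves Jag2 and Dtx1 the most as a share of their size.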

How the data were processed

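RNA from sorted lung ILC2s of 3 WT and 3 KO samples was made into full-length cDNA with a SMART-Seq HT kit, per the labels, and HISAT2, Cufflinks and mm10 are named in the submitters' processing notes, with no versions. The counter, strand setting and comparison tool were not given in the sources used here. Without strand, a gene and an antisense partner cannot be told apart. Per the file headers, the authors deposited a signal per gene, the mean normalized count over the libraries of their fit. They also deposited a log2 fold change, its standard error and a score. The deposited p-value comes raw and adjusted. The column names are those of a DESeq2 results table, per the file headers. The score equals the fold change over its standard error to within 2.4e-07. The adjusted p-value, present for 14961 genes with a mean of at least 10.46, equals a Benjamini-Hochberg adjustment to within 7.6e-07. The file has 12 more columns under 6 sample names that match no label. They entered no result, so the planned count test was replaced by the deposited comparison.

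Intervals are 95% normal intervals from the deposited standard error, whose median over tested genes was 0.233. Which libraries the fit held is not given, and replicates may share technical spread. Alternatives recomputed p from the fold change over its standard error and adjusted it over the genes of that alternative. Trends were removed by lowess (span 0.3), and shrinkage used a normal prior with an SD of 0.438. For shrinkage, p came from the shrunken value over its posterior SD, so every score was lower than the deposited one by construction. Exonic length is the union of exons in GENCODE M21 on mm10 (99.27% of identifiers matched). The functions were tested on simulated data. Scripts ran in Python 3.11.15 with statsmodels 0.14.6, scipy 1.17.1, numpy 2.4.6 and pandas 2.3.3, and recentring took the median of the 25% of genes with the largest means as 0.

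The 10 genes and all lists were chosen with earlier results of these data known. Named genes were the 10, Stk11, the genes called in each role list (up to 6 with the smallest p), the most abundant gene not called, the neighbours of Jag1 in fold change, and the leading markers of other cell types. Other genes named, the class C and E-box motifs and the GC alternative were chosen after values were seen. Some genes of the lists are counted but not reported here by name.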

Additional observations from a re-analysis of the deposited data

How the results depend on the processing

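Over 8 alternatives, 72 log2 values of the 10 Notch genes were set beside the deposited ones. Alternatives that changed only the adjustment or the threshold reused the deposited log2 values, so no sign could change in them. A stricter threshold or shrinkage could only remove calls. Of the 72, 62 kept sign and side of the threshold, 5 lost a call, 3 gained one and 2 changed sign without a call. Part of the 62 was therefore fixed in advance. Nrarp had an adjusted p in 1 of the alternatives, 0.572, and Jag2 had none where genes with a mean below 100 were left out. Counts of positive calls stayed between 4 and 5, and negative calls between 1 and 2. Rbpj joined Dtx1 as the second negative call, giving 2, when genes with a mean below 100 were left out, with the length trend removed and with the length and GC trends removed. Notch1, not called in any of them, changed sign to -0.018 with the length trend removed and to -0.0925 with both trends removed. Of the 75 other pathway genes, positive calls fell from 20 to 12 at an adjusted p below 0.01, to 1 where a 2-fold difference was also required, to 12 with the length trend removed and to 13 with both trends removed, an alternative added after the data were seen. Negative calls fell from 6 to 2 where a 2-fold difference was also required. Why these counts moved is shown by construction for the stricter thresholds, and the cause was not tested for the trends.

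No paired analysis was possible because the per-sample columns match no label, and for the same reason a count test, another normalization, and leaving out replicates were not run. The precision of each gene is that of its deposited standard error, which is widest for scarce genes such as Jag2 and Nrarp.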

Other observations

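Genes that flank the 10 Notch genes on the chromosome were read from the same comparison. This list was chosen by position after the values of the Notch genes were seen. Of 20 flanking protein-coding genes on GENCODE M21, 17 had an adjusted p, and 5 of these were called positive and 2 negative, beside 11.0% and 13.5% of all tested genes. Both neighbours of Hey1 had the opposite sign to it: the stathmin family gene Stmn2 at -2.08 ± 0.46 (SE), 101.8 kb away, and the mitochondrial ribosomal protein gene Mrps28 at -1.12 ± 0.23 (SE), 134.9 kb away, in the authors' deposited table. Beside Jag1, Slx4ip, 9.51 kb away, had -0.10 ± 0.25 (SE) and was not called, and Btbd3, 1140 kb away, had 0.86 ± 0.26 (SE) and was called in the authors' deposited table. Both neighbours of Nrarp were called positive, Noxa1 at 1.72 ± 0.33 (SE) and Tor4a at 0.57 ± 0.15 (SE) in the authors' deposited table, while Nrarp itself was barely detected.

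Exons of Dll1, Notch1, Notch2 and Nrarp overlap exons of other annotated genes. The overlapping genes with a row had means of 3.77 (A930024N18Rik, at Dll1), 2.75 (0610009E02Rik, at Notch1) and 26.6 normalized counts (Gm42820, at Notch2) in the authors' deposited table, each under 2% of the mean of the Notch gene it overlaps.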
